A study of Mus musculus with 3 samples.

Results

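The genes described are 8 CC chemokines of macrophages (Ccl3, Ccl4, Ccl5, Ccl6, Ccl9, Ccl17, Ccl22 and Ccl24) and 1 receptor, Ccr1, taken by name: every probe that is no control spot and whose gene name, or current symbol through its accession, was one of these 9. They were covered by 11 of the 41174 probes of the array, and 27597 gene names were covered in all. Ccl5 and Ccl24 had 2 probes each, and the other 7 genes had 1. A probe well above background on at least 1 array was found for 6 of these 9 genes and for 14556 genes over the whole array.

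The study asked how hexavalent chromium (Cr(VI)), given as the carcinogen potassium dichromate, alters gene expression in macrophages of the mouse peritoneum. Male Swiss albino mice aged 8 weeks, 10 in each group, were all injected into the peritoneum with 125 µg of lipopolysaccharide, a bacterial wall component that draws macrophages there (day 0). Controls were given 100 ng of 12-O-tetradecanoylphorbol-13-acetate (TPA, a phorbol ester and tumour promoter) alone on day 4, while the other animals had 35 or 70 nmol of chromate with the same TPA. Cells were collected by lavage 4 days later in medium with GM-CSF, a growth factor for macrophages, so lipopolysaccharide, TPA and GM-CSF are common to all groups and no group was untreated. The protocol text gives the doses as nmol of dichromate and the sample labels as nmol of Cr(VI). The cells were not sorted. Each group was measured on 1 one-colour Agilent array, and the labels do not settle whether its RNA came from 1 animal or from a pool. No difference below therefore has a replicate check, no p-value is given, and the errors quoted cover the scanner only and leave out the spread between animals.

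CC chemokines are small secreted proteins that guide leukocytes through G protein-coupled receptors named CCR. The genes described fall into groups by receptor. Ccl3, Ccl4 and Ccl5 are inflammatory chemokines that attract monocytes and T cells, and Ccl3 and Ccl5 bind CCR1. Ccl6 and Ccl9 are rodent chemokines made by myeloid cells, with CCR1 as a receptor. Ccl17 and Ccl22 attract T helper 2 and regulatory T cells through CCR4, and Ccl24, known as eotaxin-2, attracts eosinophils through CCR3. These last 3 are known to be induced by interleukin-4 acting through STAT6 and are used as signs of alternative macrophage activation, whereas Ccl3, Ccl4 and Ccl5 are known targets of NF-kB.

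The promoters of the neighbouring pairs Ccl6 and Ccl9, and Ccl17 and Ccl22, are shown because the genes of each pair lie close together in the genome, and both genes of the first pair but only Ccl17 of the second had measurable signal. Each line holds the 250 bases before the transcription start from RefSeq, assembly GRCm38.p6, 5′ to 3′ on the gene's strand. Capitals mark a match to a searched motif.
Ccl6, chr11:83593088-83593337, minus strand: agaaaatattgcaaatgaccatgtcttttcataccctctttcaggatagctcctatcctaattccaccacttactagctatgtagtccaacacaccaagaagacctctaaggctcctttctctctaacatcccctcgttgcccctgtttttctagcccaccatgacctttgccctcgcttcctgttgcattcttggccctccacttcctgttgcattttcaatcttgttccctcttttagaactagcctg
Ccl9, chr11:83578637-83578886, minus strand: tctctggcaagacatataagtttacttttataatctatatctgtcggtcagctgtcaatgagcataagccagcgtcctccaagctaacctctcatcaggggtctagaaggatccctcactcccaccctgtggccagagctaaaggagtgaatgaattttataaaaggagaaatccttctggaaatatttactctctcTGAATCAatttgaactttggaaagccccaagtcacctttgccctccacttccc
Ccl17, chr8:94810203-94810452, plus strand: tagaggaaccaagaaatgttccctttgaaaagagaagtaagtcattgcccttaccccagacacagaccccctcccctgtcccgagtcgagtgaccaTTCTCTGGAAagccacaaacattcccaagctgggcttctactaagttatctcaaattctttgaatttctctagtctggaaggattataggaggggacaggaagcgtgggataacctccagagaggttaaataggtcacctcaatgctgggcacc
Ccl22, chr8:94745434-94745683, plus strand: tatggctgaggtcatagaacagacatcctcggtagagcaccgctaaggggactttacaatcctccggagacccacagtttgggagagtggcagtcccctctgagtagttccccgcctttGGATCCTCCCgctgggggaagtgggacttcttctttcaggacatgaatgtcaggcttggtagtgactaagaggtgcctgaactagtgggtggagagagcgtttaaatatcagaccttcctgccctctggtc

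A promoter was found for 6 of the 9 genes (Ccl3, Ccl6, Ccl9, Ccl17, Ccl22 and Ccr1). Both strands were searched for an NF-kB motif (GGGA and CC with 4 bases between), a STAT6 motif (TTC and GAA with 4 bases between), an interferon response element (GAAA and GAAA with 2 bases between) and an AP-1-like motif (TGANTCA, where N is any base). Of the 6 promoters 4 held 1 match each. Ccl17 held the STAT6 motif, beginning 154 bases before the start, and 5.85% of 32851 promoters of that length held one. An NF-kB motif, present in 17.6% of all promoters, began 131 bases before the start of Ccl22 and 74 bases before that of Ccr1. Ccl9 held the AP-1-like motif, as TGAATCA, beginning 53 bases before its start, and 6.75% of all promoters held a match to that pattern. Ccl6 and Ccl3 held none of the motifs, and no match of any of these genes overlapped another. The interferon response element was in 2.98% of promoters and in none of the 6. A match is a run of letters, not a site shown to be bound.

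The scanner values were read as log2 levels relative to the 75th percentile of each array, so 0 is the level that 25% of spots exceed and a difference of 1 is 2-fold. The control, 35 nmol and 70 nmol arrays had 49.0%, 45.9% and 45.1% of all probes well above background, and 122, 107 and 103 probes were saturated. Repeated spots of a probe had a median SD of 0.085, 0.082 and 0.049 (log2). All 3 arrays lay on 1 slide with 1 scan date, and slide position and group cannot be told apart. The 10 macrophage markers searched, among them the receptor gene Csf1r and the lysosomal gene Cd68, were all well above background on every array, with a median difference of 0.02 at 70 nmol and -0.04 at 35 nmol. Cells other than macrophages were also present on every array: 12 T and NK cell markers of 13 on the array and 9 B cell markers of 9 were well above background on the control.

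At 70 nmol of chromate, 1 of the 5 measured CC chemokines was at least 2-fold higher than with TPA alone (Ccl4) and 1 was at least 2-fold lower (Ccl24). Over all 12540 genes measured in that comparison, 1.63% passed 2-fold upwards and 1.08% downwards, so that 60% of the genes past 2-fold were higher. At 35 nmol none of 6 measured chemokines passed 2-fold, where 1.12% and 0.299% of 12727 genes did, higher and lower. Between the doses, 1 of 5 was at least 2-fold lower at 70 nmol (Ccl24) and none was higher, beside 0.921% higher and 0.719% lower of 12384 genes. The median difference of the measured chemokines was 0.49 at 70 nmol and 0.48 at 35 nmol against TPA alone, and -0.13 between the doses, beside 0.04, 0.04 and 0.00 over all genes. Both doses are set against the same control array.

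Scaling on spike-in RNA, control transcripts that Agilent's labelling protocol adds in equal amounts, moved the median of all genes to -0.32 at 70 nmol and -0.38 at 35 nmol. The share of higher genes among those past 2-fold was then 17.7% in place of 60% at 70 nmol, and 21.8% in place of 79.0% at 35 nmol. The shift it gives every difference from the control is -0.36 for 70 nmol and -0.42 for 35 nmol, so that a positive value or list median smaller than this turns negative. Ccl4 and Ccl24 stayed past 2-fold under that scaling at 70 nmol.

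**Figure D1:**
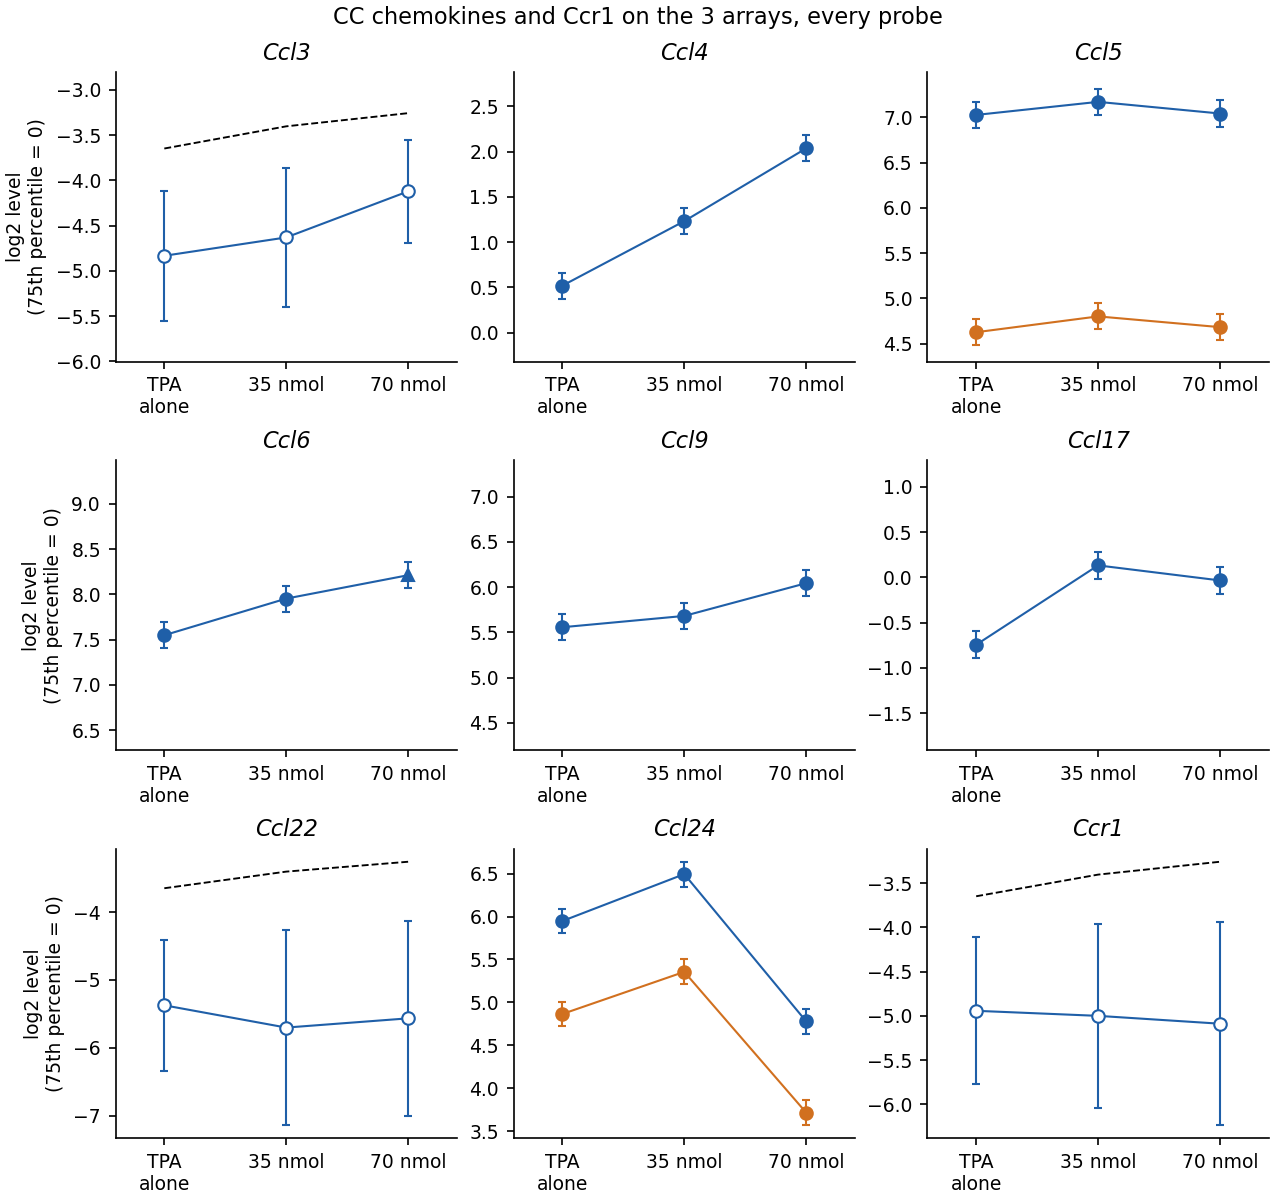
Log2 level of every probe of the 9 genes (0 is the array's 75th percentile) with TPA alone, 35 and 70 nmol of chromate, 1 array each; bars are the scanner software's error, blue is the brighter and orange the dimmer probe of a gene, open symbols are not well above background, the triangle is a saturated spot and the dashed line is the lowest level well above background on each array. Each panel has its own axis: Ccl4 lies at 0.52, 1.23 and 2.04, both Ccl24 probes are highest at 35 nmol and lowest at 70 nmol, and Ccl3, Ccl22 and Ccr1 lie under the dashed line throughout.

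Of the 5 of these 9 genes that were measured on all 3 arrays, Ccl24 had the widest spread. Its brighter probe read 5.95 with TPA alone, 6.49 at 35 nmol and 4.78 at 70 nmol (processed signals 16614, 18559 and 5883). The 35 nmol array was the highest and the 70 nmol array the lowest. Against TPA alone, Ccl24 was 1.46-fold higher at 35 nmol (0.55, scanner error 0.20) and 2.25-fold lower at 70 nmol (-1.17). The excess at 35 nmol lay inside the range of -0.53 to 0.64 that held 95% of all genes. The value at 70 nmol lay below the corresponding range, -0.70 to 0.84. Ccl24 was 3.29-fold lower at 70 than at 35 nmol (-1.72), the 13th difference from the bottom of 12384 genes. Over the 3 arrays its range of 1.72 ranked 63rd of 12324 genes, whose median range was 0.24 and 95th percentile 0.87.

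The second Ccl24 probe gave the same course. It read 4.86, 5.36 and 3.71, which is 0.49 above the control at 35 nmol and 1.15 below it at 70 nmol (-1.15). The gap between the probes' differences was 0.02 at 70 nmol and 0.06 at 35 nmol, where genes with 2 probes had median gaps of 0.16 and 0.15 (3061 genes). The probes lie on chromosome 5 at chr5:135855242-135855301 and chr5:135855424-135855483 in the array design's build, mm8. The exon and UTR annotation of that build was not used here. Ccl24 kept its sign in every comparison under all 9 alternative settings, although its excess at 35 nmol was only 0.12 with spike-in scaling. Not all 9 could change it, since loosening or tightening the filter on dim probes leaves a measured difference as it is.

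In unsorted cells, fewer cells of a type and less RNA per cell cannot be told apart. Markers of large peritoneal macrophages, the resident population, stood lower at 70 nmol: 5 of 11 measured were at least 2-fold lower, with a median of -0.98, and 0 of 11 were past 2-fold at 35 nmol, with a median of -0.28. With spike-in scaling 9 of 11 were at least 2-fold lower at 70 nmol (median -1.34). Arg1, also counted in the interleukin-4 list below, went the other way (0.79 at 70 nmol and 0.73 at 35 nmol). All 12 genes of that list were well above background on every array. Summed without Icam2, whose spot was saturated on the control and 35 nmol arrays, the level of the list was 7.97 with TPA alone, 7.80 at 35 nmol and 7.04 at 70 nmol. Gata6, the transcription factor that defines these cells, differed by -1.08 at 70 nmol and -0.28 at 35 nmol on its brightest probe. Another Gata6 probe gave -1.02 and -0.35, and a further one, also well above background throughout, went the other way (0.56 and 0.43). Their part in the Ccl24 difference was not tested.

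Eosinophils are the main target of Ccl24. Of 7 eosinophil markers, 5 were well above background, and the granule genes Epx and Prg2 were not on any array. At 35 nmol 2 of the 5 were at least 2-fold higher (Siglecf 1.44 and Ear1 1.46), with a median of 0.40. Both were dim with TPA alone (-2.96 and -3.15), under the 25th percentile of probes well above background on that array (-1.91). At 70 nmol 1 was at least 2-fold lower (Alox15, also a marker of the resident macrophages above, at -1.65), with a median of 0.12. Without Alox15, which makes up nearly all of the list's signal, the level summed over the other 4 was 1.20 with TPA alone, 1.64 at 35 nmol and 1.27 at 70 nmol. Mast cell markers stood lower at both doses: 2 of 6 were at least 2-fold lower at 35 nmol (median -0.88) and 5 of 6 at 70 nmol (median -1.56), and their summed level was 4.61, 3.75 and 2.91. Liver cell markers, most of them foreign to a macrophage sample, were highest at 35 nmol and lowest at 70 nmol. Of 9 on the array, 7 were well above background with TPA alone, 8 at 35 nmol and 2 at 70 nmol. Their summed level was 6.45, 6.999 and 5.53, but most of it came from 1 gene, Trf, which encodes transferrin and read 6.17, 6.35 and 5.53. At 70 nmol the sum was nearly all Trf, so it does not show the course of the other liver markers. Alb, which encodes albumin, differed by 1.56 at 35 nmol and by -6.09 at 70 nmol. The part of these cells in the result was not tested.

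Ccl4 had the largest excess at 70 nmol of the 5 chemokines measured there, which leaves out Ccl6, known only as a bound, and the genes not well above background. Its 1 probe, at chr11:83480745-83480804 (mm8), read 0.52 with TPA alone, 1.23 at 35 nmol and 2.04 at 70 nmol (processed signals 385, 483 and 879). The 3 arrays thus lay in the order of the dose. Ccl4 was 1.64-fold higher at 35 nmol (0.71, scanner error 0.20), 2.86-fold higher at 70 nmol (1.52) and 1.75-fold higher at 70 than at 35 nmol (0.80). The difference at 70 nmol was the 57th from the top of 12540 genes, and that at 35 nmol the 263rd of 12727. Across the 9 alternatives it stayed between 1.16 and 1.52 at 70 nmol and between 0.29 and 0.73 at 35 nmol.

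Ccl5, an inflammatory chemokine known as RANTES, differed from the control by less than the scanner error. Its brighter probe, at chr11:83341989-83342048, read 7.03 with TPA alone, 7.17 at 35 nmol and 7.04 at 70 nmol. Its dimmer probe, at chr11:83342140-83342195, read 4.63, 4.80 and 4.68. The differences of the brighter probe from the control were 0.14 at 35 nmol and 0.02 at 70 nmol, those of the dimmer probe 0.17 and 0.06, and the scanner error of each was 0.20. With spike-in scaling they turned to -0.28 and -0.35, and with cyclic loess normalisation to -0.03 and -0.15. Its range over the arrays, 0.14, was under the median of all genes, 0.24.

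Ccl3, which encodes the chemokine MIP-1α, was not well above background on any array. Its probe, at chr11:83464051-83464110 and 16.7 kb from that of Ccl4, read -4.83, -4.63 and -4.12, below the lowest levels well above background (-3.65, -3.40 and -3.26). No fold is given for it.

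T and NK cells are a further known source of Ccl4 and Ccl5. Of their measured markers 0 of 11 at 70 nmol and 0 of 12 at 35 nmol passed 2-fold, with medians of -0.02 and -0.07, and the summed level was 5.16 on each array. Of 6 measured markers of monocytes and small peritoneal macrophages, the cells that replace resident ones in inflammation, 1 was at least 2-fold higher at 70 nmol (median 0.39) and 0 at 35 nmol (median 0.11). Of 5 measured neutrophil markers 2 passed 2-fold upwards and 2 downwards at 70 nmol, and 1 upwards and 3 downwards at 35 nmol. Of 5 measured fibroblast markers 4 were at least 2-fold higher at 70 nmol (median 1.51) and 0 at 35 nmol (median 0.02). Their summed level was 4.61, 4.69 and 5.53. With spike-in scaling 3 of the 5 fibroblast markers and 0 of the 6 monocyte and small macrophage markers (median 0.02) were at least 2-fold higher at 70 nmol. Of the T and NK cell markers, 1 of 11 at 70 nmol and 2 of 12 at 35 nmol were then at least 2-fold lower. The part of these cell types in the Ccl4 difference was not tested.

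Ccl6 was measured with TPA alone and at 35 nmol and was saturated on the 70 nmol array, where 63 of the 64 pixels of its spot were at the scanner's ceiling. The probe, at chr11:83404690-83404749, read 7.55 with TPA alone and 7.95 at 35 nmol, where no pixel was saturated, and 8.21 at 70 nmol (processed signals 50409, 51027 and 63592). Ccl6 was 1.32-fold higher at 35 nmol than with TPA alone (0.40, scanner error 0.20), a difference that was -0.02 with spike-in scaling. At 70 nmol only a bound holds: Ccl6 was at least 1.58-fold higher than with TPA alone and at least 1.20-fold higher than at 35 nmol. Under the other scalings the bound against TPA alone lay between 1.23-fold and 1.58-fold.

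Ccl9, the neighbour of Ccl6 at a distance of 13.8 kb, stood highest at 70 nmol. Its probe, at chr11:83390916-83390975, read 5.56 with TPA alone, 5.68 at 35 nmol and 6.04 at 70 nmol (processed signals 12659, 10556 and 14130). The first and second of these lie within the scanner error of their difference, 0.12, which turned to -0.30 with spike-in scaling and -0.01 with cyclic loess. At 70 nmol Ccl9 was 1.40-fold higher than with TPA alone (0.49), inside the range of -0.70 to 0.84 that held 95% of all genes. It was 0.36 higher at 70 than at 35 nmol.

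Ccr1, the receptor for Ccl3, Ccl5, Ccl6 and Ccl9, was not well above background on any array. Its probe, at chr9:123811755-123811814, read -4.94, -5.00 and -5.09, so its level and any difference were not measurable at this signal. The scanner errors of the differences of Ccl3, Ccl22 and Ccr1 lay between 0.92 and 2.03. Of 15 genes for signalling and desensitisation downstream of chemokine receptors, 0 passed 2-fold at 70 nmol (median -0.20) and 1 did at 35 nmol (Rgs16, which shortens G protein signals, at 1.23; median 0.04). In that list Rgs18, of the same protein family, differed by -0.93 at 70 nmol. Rgs16 was dim, at -2.34 on the 35 nmol array and -3.56 with TPA alone. The latter is close to the lowest level well above background on the control array (-3.65). With spike-in scaling Rgs16 was 0.80 higher at 35 nmol, under 2-fold, and 2 of the 15 were at least 2-fold lower at 70 nmol (Rgs18 -1.29 and Rgs2 -1.01).

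**Figure D2:**
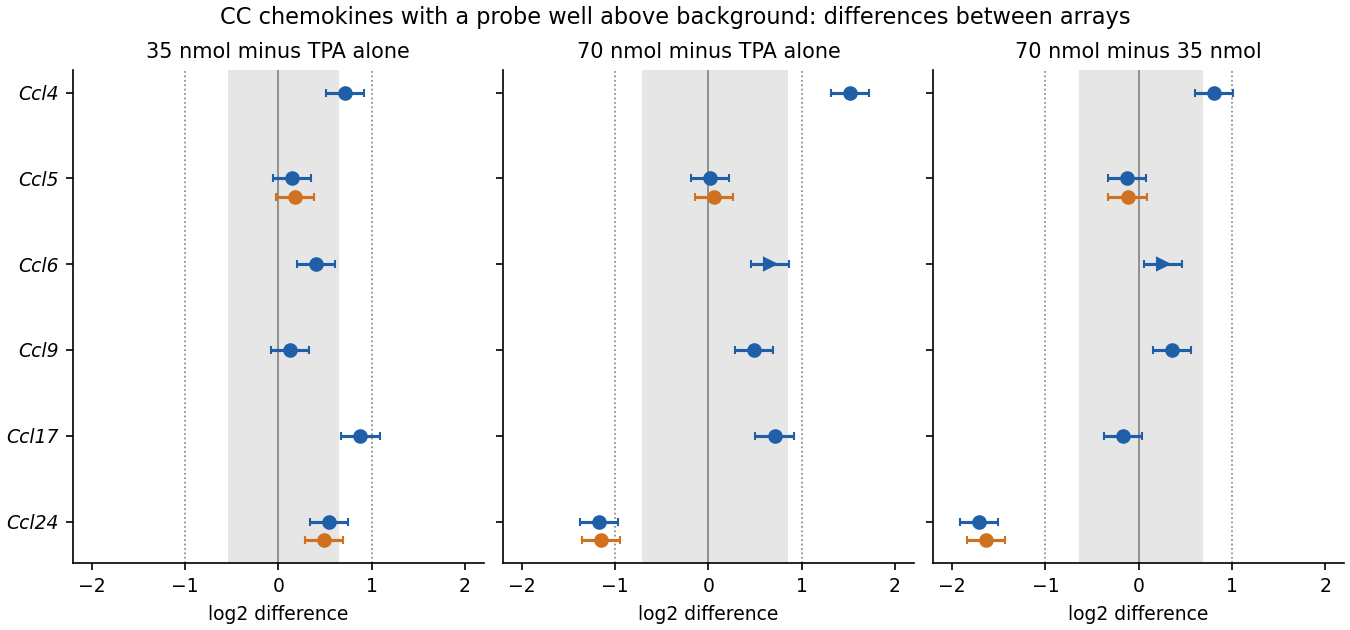
Log2 differences between arrays for the 6 chemokines with a probe well above background, 35 nmol minus TPA alone, 70 nmol minus TPA alone and 70 minus 35 nmol; bars are scanner error, blue the brighter and orange the dimmer probe, triangles are lower bounds from a saturated spot, grey bands hold 95% of all measured genes and dotted lines mark 2-fold. Ccl4 at 1.52 and Ccl24 at -1.17 lie past 2-fold at 70 nmol, Ccl24 at -1.72 also between the doses, and none of the 6 does at 35 nmol.

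Ccl17 was higher at both doses without passing 2-fold. Its probe, at chr8:97700999-97701058, read -0.74 with TPA alone, 0.13 at 35 nmol and -0.03 at 70 nmol (processed signals 161, 226 and 209). Both chromate arrays lay above the control, and they differed from each other by -0.17, less than the scanner error of 0.20. Ccl17 was 1.84-fold higher at 35 nmol (0.88), above the 0.64 that bounds 95% of all genes on that side, and 1.64-fold higher at 70 nmol (0.71), inside the corresponding bound of 0.84. With spike-in scaling these were 0.45 and 0.35. It was the largest difference at 35 nmol of the 6 measured chemokines.

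Ccl22, the other CCR4 ligand, was not well above background on any array. Its probe, at chr8:97639938-97639997 and 61.1 kb from that of Ccl17, read -5.37, -5.70 and -5.57. The receptor gene Ccr4 was likewise not well above background on any array. The brighter probe of Ccr3, the receptor for Ccl24, read 0.60 with TPA alone, 1.01 at 35 nmol and 0.73 at 70 nmol. The dimmer Ccr3 probe read -5.96, -5.69 and -5.28 and was not well above background on any array, so the probes disagree on the level of Ccr3. Dendritic cells are a known source of Ccl17 and Ccl22. Of 9 dendritic cell markers 5 were well above background, Flt3, Cd209a, Xcr1 and Clec9a were not on any array, and 0 of 5 passed 2-fold at either dose (medians of 0.02 at 70 nmol and -0.14 at 35 nmol). Their summed level was 2.29, 2.10 and 2.27. On the 35 nmol array 5 of 7 measured liver cell markers were at least 2-fold higher than with TPA alone (median 1.56), the reverse of the 70 nmol array described above. Of the red cell markers there, 4 of 4 were at least 2-fold lower (median -2.47). The part of dendritic, liver and red cells in the Ccl17 difference was not tested.

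Ccl17 and Ccl24 belong to the genes that interleukin-4 is known to induce, and 20 other genes of that response were read beside them, of which 19 were on the array. At 70 nmol 2 of 17 measured were 2-fold or more higher and 0 lower, with a median of 0.46. Pdcd1lg2, a ligand of PD-1, is not among the 17, since its 70 nmol signal did not rise well above background; it was at least 4.10-fold lower there than with TPA alone. Retnla, a secreted protein of alternatively activated macrophages, was 1.23 higher, and Mrc1, the mannose receptor, 1.59 higher. At 35 nmol 3 of 17 were at least 2-fold higher: Il4 itself (1.57), Retnla (1.11) and Chil3, a chitinase-like protein (1.19). Pdcd1lg2 was at least 2-fold lower there (-1.18), and the median was 0.42. Il4 was dim with TPA alone (-2.71), under the 25th percentile of probes well above background on the control array (-1.91). With spike-in scaling the medians were 0.10 at 70 nmol and 0.00 at 35 nmol, and only Mrc1 at 70 nmol (1.22) and Il4 at 35 nmol (1.15) stayed at least 2-fold higher. Retnla was then 0.87 and 0.69 higher, and Chil3 0.77 higher at 35 nmol. The 3 brightest genes of the list on the control array were Chil3 (5.49, 6.68 and 6.13), Fn1, fibronectin, at 7.76, 7.74 and 7.51, and Il4ra, the receptor subunit for interleukin-4, at 4.57, 4.79 and 4.88. Ccl24 at 70 nmol, 1.17 below the control (-1.17), thus lay on the other side of 0 from the median of this list, and Ccl17 on the same side.

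NF-kB feedback and inflammatory genes, read because Ccl3, Ccl4 and Ccl5 are known targets, passed 2-fold in 0 of 16 measured at 70 nmol (median 0.09) and 0 of 15 at 35 nmol (median 0.06). With spike-in scaling these medians were -0.27 and -0.36. The 2 largest differences at 70 nmol were those of the cytokine Tnf (0.90) and the adhesion molecule Icam1 (0.67). Ccl4 at 1.52 lay above both, and Ccl5 at 0.02 below the median of the list.

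**Figure D3:**
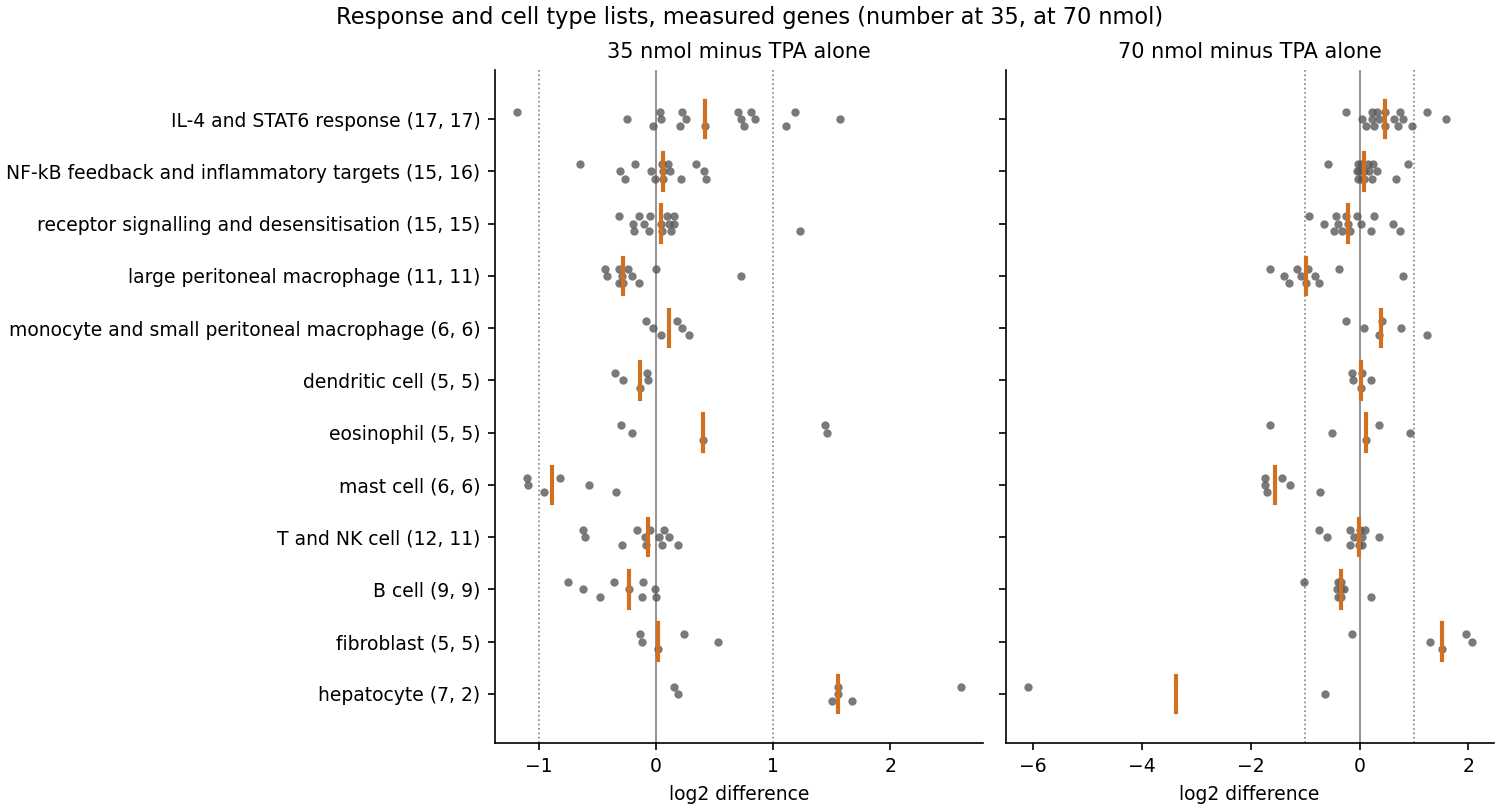
Log2 difference of each measured gene of the response and cell type lists, 35 nmol minus TPA alone and 70 nmol minus TPA alone, with the number measured at each dose in brackets; points are genes, orange lines are list medians, dotted lines mark 2-fold, and the axes of the panels differ. Large peritoneal macrophage markers have a median of -0.98 and mast cell markers of -1.56 at 70 nmol, fibroblast markers of 1.51, and dendritic and T and NK cell markers lie about 0.

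Of 27 further CC chemokines and receptors, 25 were on the array and 15 were well above background on at least 1 array. At 70 nmol 2 of 12 measured were at least 2-fold higher (Ccl2 1.76 and Ccl8 2.58, both monocyte attractants) and 0 lower, and at 35 nmol 0 of 12 passed 2-fold. Between the doses 3 of 14 were at least 2-fold higher at 70 nmol: Ccl8 (1.86), Ccl12 (1.65) and Ccl7 (1.53). The medians were 0.08 at 70 nmol, 0.10 at 35 nmol and 0.26 between the doses; with spike-in scaling the first became -0.28 and the second -0.32, and Ackr2 passed 2-fold downwards at 70 nmol (-1.01). Ccl12 and Ccl7 were not well above background with TPA alone, and at 70 nmol they were at least 10.6-fold and at least 4.03-fold higher. At 35 nmol Ccl12 was at least 3.38-fold higher, and Ccl19, a ligand of CCR7, at least 2.04-fold higher. The values of Ccl7 and Ccl19, also between the doses, are those of the probe brighter on average. The other Ccl7 probe read -3.67, -3.21 and -2.23, a smaller rise at 70 nmol from either other array. The other Ccl19 probe read -3.63, -3.19 and -5.26, a smaller rise at 35 nmol. Among the receptors, the scavenging receptor gene Ackr2 read 3.39, 3.37 and 2.75 and Ccr6 read 2.18, 1.71 and 1.69.

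**Figure D4:**
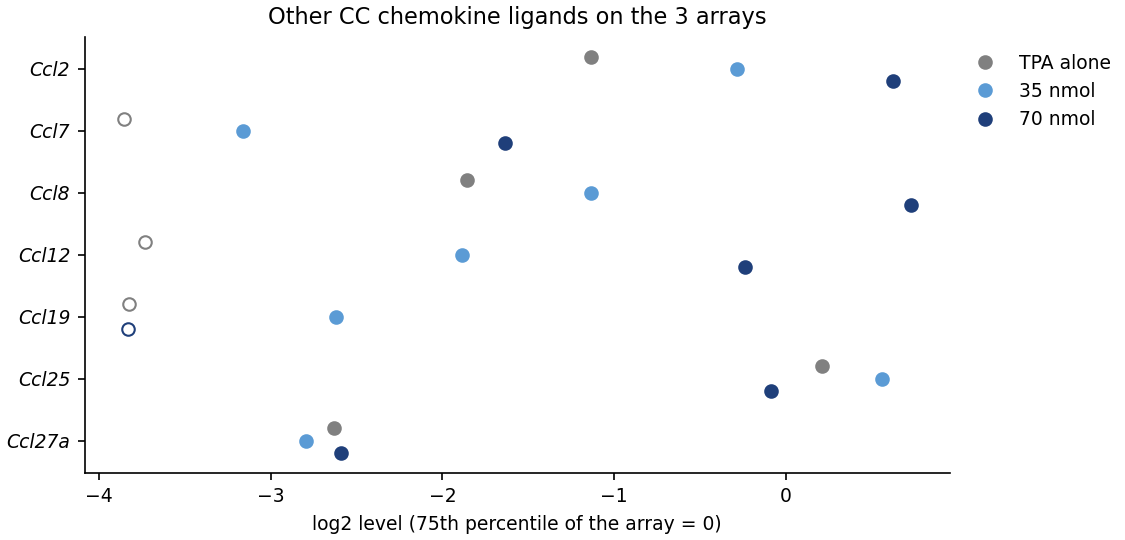
Log2 level (0 is the array's 75th percentile) of the 7 further CC chemokine ligands with a probe well above background on at least 1 array, for TPA alone, 35 nmol and 70 nmol; open circles are not well above background. Ccl2, Ccl7, Ccl8 and Ccl12 lie in the order of the dose, and Ccl12 and Ccl7 have open circles with TPA alone.

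The genes whose pair of differences from the control lay nearest to that of a chemokine past 2-fold were sought among 6040 candidates, by Euclidean distance over the 2 chromate arrays. For Ccl24 they were Fabp4, a fatty acid-binding protein (0.71 at 35 nmol and -1.29 at 70 nmol, distance 0.20), Cd209b, a C-type lectin (0.43 and -1.45, distance 0.31), and Kctd12b (0.48 and -0.82, distance 0.36). A second Fabp4 probe well above background on all arrays gave 0.68 and -1.35, and a second Cd209b probe 0.25 and -1.53. For Ccl4 they were Htra1, a secreted serine protease (0.75 and 1.58, distance 0.071), Clec4b1, a C-type lectin (0.63 and 1.38, distance 0.16), and Ccdc80 (0.62 and 1.34, distance 0.20). Likeness over 1 array per dose is a description of these arrays.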

How the data were processed

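Gene expression was measured on 3 one-colour Agilent mouse arrays, 1 per group. Spot intensities were extracted with Agilent Feature Extraction, per the submitters' processing notes, in version 10.5.1.1 per the file headers, which also give build mm8 and set the well-above-background multiple at 13. From the deposited intensity columns, the processed signal with its error and the mean and background signals were read. The value table that the authors deposited is on the log2 scale: each column equalled the log2 processed signal minus a constant (8.00, 7.61 and 7.67) within 0.01 for all single-spot probes well above background, so scale and direction are known and genes were not centred. Its column medians were -3.60, -3.74 and -3.78.

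Here the log2 processed signal was scaled on each array's 75th percentile over 43379 spots (8.07, 7.69 and 7.74), and spots of a probe were averaged. Probes were named through the RefSeq table of GRCm38.p6 by accession (24375), symbol (6301) or synonym (2426), and 8072 kept the name in the file. Each gene took the value of its brightest probe that rose well above background on at least 1 array, and counted as measured between 2 arrays where this probe was unsaturated and well above background on both. Otherwise a fold is a bound: the brighter level over the dim probe's own level or, if higher, the lowest level that the array had among probes well above background. A summed level is the log2 of the sum of a list's scaled signals. The error of a difference combines the scanner software's errors of both arrays.

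The 9 genes and all lists were chosen with earlier results of these data known. All 9 were named. Of the further CC chemokines and the interleukin-4 list, those past 2-fold and the 3 brightest on the control were named. Of other lists, up to 2 genes with the largest difference at a dose were named. Csf1r, Cd68, Gata6, Ccr3 and Ccr4 were named for their role, and Icam2, Arg1, Alb, Trf and Rgs2 after their values were seen. Epx, Prg2, Flt3, Cd209a, Xcr1 and Clec9a were named as list members not well above background on any array. Not every gene that this rule selects is reported here. Most-alike genes had a symbol and lay at or above the median level on at least 1 array.

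As alternatives, background was corrected by normexp (offset 50), arrays were normalised by quantiles or by cyclic loess, or scaled on the median of detected probes or on 4 of the 10 spike-in probes, and the deposited table was used. The filter on dim probes was loosened or tightened, probes of a gene were averaged, and thresholds of 1.5-fold and 3-fold were tried. The counting steps were tested on simulated data. Software was R 4.3.3, limma 3.58.1, Python 3.11.15, pandas 2.3.3, numpy 2.4.6 and matplotlib 3.10.9.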

Additional observations from a re-analysis of the deposited data

Results flagged for a closer look

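Ccl24 differed from TPA alone in opposite directions at the doses, 0.55 higher at 35 nmol and -1.17 at 70 nmol (log2). Both of its probes showed this. The difference between the doses was not tested, since each dose has 1 array.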

How the results depend on the processing

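Of 144 values for 16 differences of single chemokines under 9 alternative settings, 133 lay within the scanner error of the value reported and 11 did not, all 11 with spike-in scaling. Part of the 133 was fixed in advance. Loosening or tightening the filter leaves a measured difference as it is, and averaging probes changes only Ccl5 and Ccl24. The deposited table holds the same signal minus a constant per array. Spike-in scaling brought the median of the measured chemokines to 0.053 at 35 nmol and 0.12 at 70 nmol, because it lowers every difference from the control by 1 constant. With a threshold of 1.5-fold, 2 measured chemokines were higher at 35 nmol, 2 at 70 nmol and 1 at 70 against 35 nmol; the bound of Ccl6 at 70 nmol, at least 1.58-fold against TPA alone, passes 1.5-fold too and is not in that count. At 3-fold, 0 were higher and 0 lower at 70 nmol against TPA alone. Over all genes, counts past 2-fold at 70 nmol (204 higher and 136 lower) were 80 and 48 with normexp, 441 and 761 with the looser filter, 118 and 56 with the stricter one and 87 and 404 with spike-in scaling. At 35 nmol (143 and 38) they were 55 and 10, 399 and 532, 61 and 13, and 71 and 255. Between the doses (114 and 89) they were 39 and 20, 374 and 478, and 59 and 26 with the first 3 of these. Thresholds of 1.5-fold and 3-fold gave 696 and 480, and 49 and 22, at 70 nmol. At 35 nmol they gave 377 and 245, and 51 and 12, and between the doses 454 and 353, and 21 and 19. No paired analysis was possible because each group has 1 array, and for the same reason no replicate could be left out. Ccl3, Ccl22 and Ccr1 were too dim for any fold, and saturation limits Ccl6 at 70 nmol.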
